A study of Mus musculus with 10 samples.

Results

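The thioredoxin system of the retinal pigment epithelium (RPE) was examined through 10 mouse genes, given by symbol and matched to the Ensembl identifiers of a table of 47729 genes. The 6 genes of cytosolic proteins were Txn1, Txnrd1, Srxn1, Txnip, Glrx and Txnl1, the 3 of mitochondrial proteins were Txn2, Txnrd2 and Glrx2, and Txnrd3, which encodes a thioredoxin-glutathione reductase, was kept apart. All 10 were in the table, and all 10 were among the 16362 genes with enough counts to be tested. Polyadenylated RNA was sequenced from both eyes of 5 mice of the wild-type CD1 stock, aged 40 days after birth (P40), which gave 10 libraries.

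In each mouse, the GFP control eye had been injected with AAV Best1-GFP alone, and the Nrf2 eye with AAV Best1-GFP together with AAV Best1-hNrf2. AAV, or adeno-associated virus, served as the gene carrier, and hNrf2 is the human cDNA of the transcription factor Nrf2. The human Best1 promoter in both vectors is active in the RPE. Injections were subretinal, and the capsids of the GFP and Nrf2 vectors differed. Nrf2 eyes thus got more vector than control eyes, and no group had a matched amount of a neutral vector, so the effect of Nrf2 and that of more vector cannot be told apart. RNA came from the eyecup after the retina was removed and was amplified before library preparation.

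Thioredoxins are small proteins that reduce disulfide bonds in other proteins, among them the peroxiredoxins that remove peroxide. A thioredoxin that has given up its electrons is reduced again by a thioredoxin reductase, a selenoprotein that draws on NADPH, and sulfiredoxin repairs peroxiredoxins that peroxide has oxidised too far. Cytosol and mitochondria hold separate thioredoxins and reductases, glutaredoxins do related work with glutathione, and the genes of the cytosolic reductase and of sulfiredoxin are textbook targets of Nrf2.

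Nrf2 binds DNA at antioxidant response elements, so the letters around the transcription starts of the members were searched for the core of that element, TGACNNNGC, on both strands. RefSeq promoter windows (GRCm38.p6), each with 250 bases before a start and 50 after it, were at hand for 9 of the 10 members, 15 windows in all. Only the windows of Txnrd1 and Srxn1 held the core among these 9 members, 1 window each. Of all 27025 genes with a window, 14% held it, and 12.4% of all 32851 windows did. The stretch of Txnrd1 (chr10:82858956-82859235, plus strand), the stretch around the match in Srxn1 (chr2:152105541-152105570, plus strand) and, for contrast, a stretch of Txn1 with no match (chr4:57956382-57956661, minus strand) are shown because the first pair are the members with the largest differences and Txn1 encodes the protein that Txnrd1 reduces. Capitals mark the match, which lies on the minus strand in both genes and reads TGACAAAGC in Txnrd1 and TGACCTAGC in Srxn1.
Txnrd1: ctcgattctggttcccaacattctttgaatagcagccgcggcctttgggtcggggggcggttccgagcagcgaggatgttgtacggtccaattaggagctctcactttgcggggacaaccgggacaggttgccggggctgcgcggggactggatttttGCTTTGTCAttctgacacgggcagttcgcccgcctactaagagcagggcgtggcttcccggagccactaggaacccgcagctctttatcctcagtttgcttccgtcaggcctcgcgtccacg
Srxn1: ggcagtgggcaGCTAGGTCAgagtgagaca
Txn1: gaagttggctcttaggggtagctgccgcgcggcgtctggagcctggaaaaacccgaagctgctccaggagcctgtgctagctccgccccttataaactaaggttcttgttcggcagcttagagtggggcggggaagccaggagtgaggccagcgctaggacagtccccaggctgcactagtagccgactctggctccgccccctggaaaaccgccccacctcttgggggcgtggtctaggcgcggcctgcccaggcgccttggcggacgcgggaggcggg
The match in Txnrd1 began at base -92 from the start of that transcript, and the match in Srxn1 at base 29 after the start, within the transcribed sequence. The fixed form TGACTCAGC, which is 1 case of the core, was in 0.503% of all genes with a window and in no member. A match describes the letters of a window and does not show a bound site.

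Library totals ran from 12298404 to 27310638 counts, and levels are given as CPM, counts scaled so that each library sums to 1000000. A count of 0 allows up to 0.11 to 0.244 CPM (3 counts of the total), a floor for counting error only, and every member was above it in every library. Summed over 6 RPE marker genes, the level was 18392.2 to 40541.5 CPM in control eyes and 8847.9 to 25695.8 CPM in Nrf2 eyes. Of the 6, 4 (Rpe65, Lrat, Rgr and Rlbp1) fell in Nrf2 eyes, with log2 fold changes of -2.88 to -1.93. These 4, set apart after the values were seen, summed to 11630.0 to 21506.1 CPM in control eyes and 1355.9 to 5357.6 CPM in Nrf2 eyes, and Ttr, which made up much of the full sum, had a log2 fold change of 0.00 (adjusted p = 0.998). Best1 itself was at 0.766 ± 0.468 CPM (SD, n = 5) in control eyes, and its lowest control eye, 0.119 CPM, lay within the range of the floor. Of 12 microglia and macrophage markers, 11 were higher in Nrf2 eyes, with sums of 164.3 to 292.1 CPM in control and 390.3 to 2015.3 CPM in Nrf2 eyes. The sum of 8 rod markers ran from 32.6 to 17339.1 CPM in control eyes and from 55.3 to 6671.3 CPM in Nrf2 eyes, highest in both eyes of mouse 2, and none of the 7 tested passed the test in either direction. In eyecup RNA, fewer cells of a type and less RNA per cell cannot be told apart. Nfe2l2, which encodes mouse Nrf2, had a mean of 88.7 ± 12.7 CPM in control eyes (SD, n = 5) against 352.9 ± 53.6 CPM with Nrf2 (SD, n = 5). Reads of the human vector sequence that aligned to it could be part of that difference, and their share was not tested.

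To ask which members differed between the eyes of a mouse, all genes were fitted together with edgeR's quasi-likelihood test with the mouse as a block. Of the 10 members, 2 rose in Nrf2 eyes (Txnrd1 and Srxn1) and 0 fell. Over all genes tested, 6.33% were called at an adjusted p under 0.05, 3.6% higher and 2.73% lower. The members had a median log2 fold change of 0.19, against -0.01 over all genes tested. Of the members, Txnrd1 and Srxn1 had no overlap in CPM between the 5 control eyes and the 5 Nrf2 eyes, and both lay higher in Nrf2 eyes. Over all genes tested, the groups did not overlap in 3.87% with the Nrf2 eyes higher and in 2.41% with them lower. As the background for counts of mice, 20.2% of all genes tested went the same way in all 5 mice.

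Txnrd1 (ENSMUSG00000020250, chromosome 10, 82833951 to 82897712, plus strand, GRCm38) encodes the cytosolic thioredoxin reductase. It was at 127.4, 111.8, 108.7, 110.1 and 82.7 CPM in the control eyes of mice 1 to 5, and at 1698.2, 1843.8, 2035.0, 1992.1 and 1731.9 CPM in their Nrf2 eyes. The lowest Nrf2 eye stood far above the highest control eye, and the order of the mice differed between the groups. The fitted difference was 4.10 on the log2 scale (SE 0.09, adjusted p = 5.02e-05), a 17.1-fold rise present in 5 of 5 mice. Its counts were 1556 to 2497 in control libraries and 24500 to 54113 in Nrf2 libraries, and its log2 fold change ranked 73 among all genes tested.

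Srxn1 (ENSMUSG00000032802, chromosome 2, 152105516 to 152111376, plus strand) encodes sulfiredoxin, which returns overoxidised peroxiredoxins to the active form. Its levels were 49.6, 46.5, 34.4, 33.6 and 32.1 CPM in the control eyes of mice 1 to 5, and 1117.1, 1379.9, 1047.7, 1366.3 and 1184.3 CPM in the Nrf2 eyes. Again no control eye came near any Nrf2 eye. Its fitted log2 fold change of 4.96 (SE 0.12, adjusted p = 5.02e-05) is a 31.1-fold rise, seen in 5 of 5 mice, and ranked 42 among all genes tested. This was the largest change of the 10 members. The within-mouse log2 ratios ran from 4.56 to 5.27 for Srxn1 and from 3.81 to 4.30 for Txnrd1, so every mouse showed a rise of similar size.

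The microglia and macrophage markers moved in the same direction as Txnrd1 and Srxn1 and by log2 fold changes of similar size, with a median of 4.47 over the 12 and a range of 2.10 to 5.90 over the 11 called. C1qa, the gene of a complement subunit made by these cells, was at 2.16 to 7.70 CPM in control eyes and 58.2 to 322.1 CPM in Nrf2 eyes (log2 fold change 4.91, SE 0.58, adjusted p = 0.00226). Csf1r, the marker not called (log2 fold change -0.57, adjusted p = 0.301), averaged 196.5 CPM in control eyes and made up most of the summed level there. The other 11, a set trimmed after the values were seen, summed to 61.5, 40.7, 33.7, 45.7 and 28.9 CPM in the control eyes of mice 1 to 5 and to 790.9, 329.3, 564, 1029.3 and 1792.9 CPM in the Nrf2 eyes. The log2 ratio of this sum was 3.69, 3.02, 4.06, 4.49 and 5.96 in mice 1 to 5. That of Txnrd1 was 3.81, 4.03, 4.24, 4.11 and 4.30, and that of Srxn1 was 4.56, 4.87, 4.94, 5.27 and 5.11. With each mouse left out in turn, including mouse 2 with its rod RNA, the log2 fold change stayed between 4.05 and 4.21 for Txnrd1 and between 4.91 and 5.09 for Srxn1. The part of these cells in either rise was not tested.

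**Figure D1:**
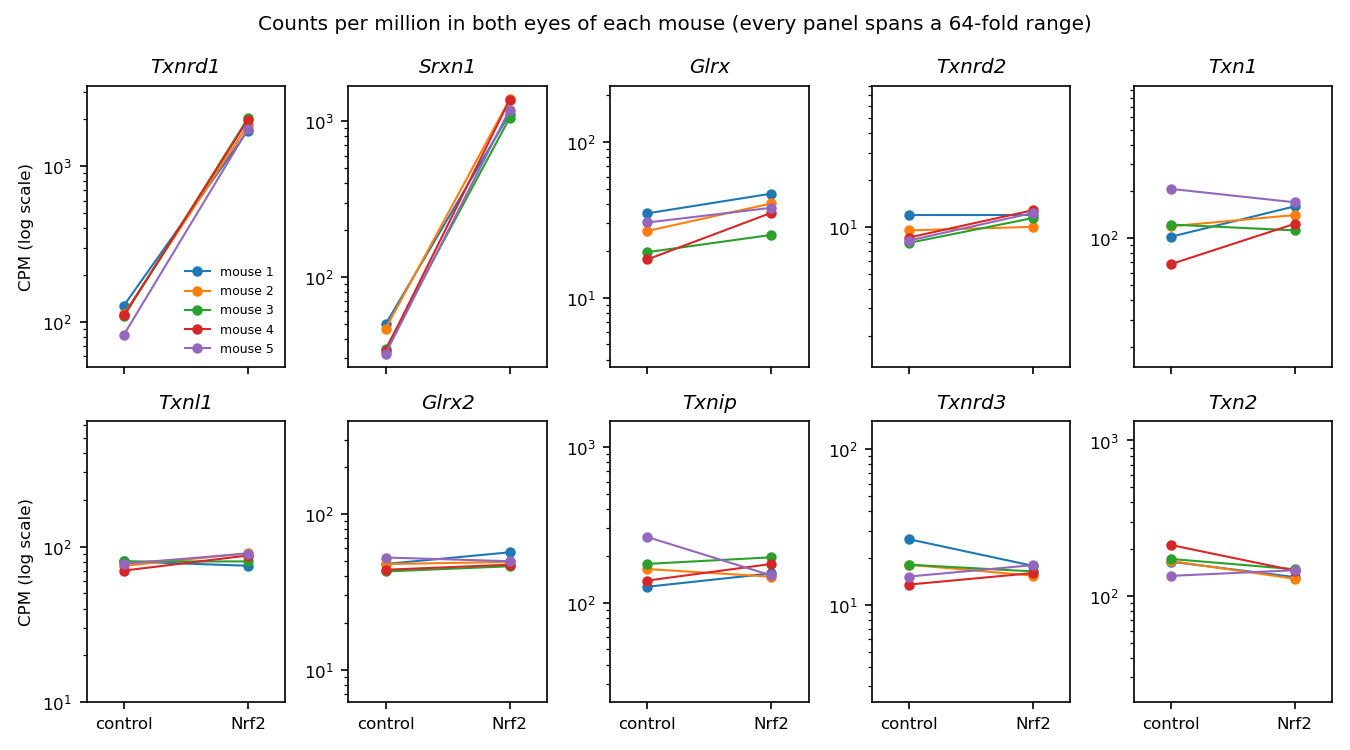
Level of each member in both eyes of each of 5 mice, in CPM on a log axis, with a line joining the eyes of a mouse, and with an axis of the same log span in every panel. Txnrd1 climbed from 82.7 to 127.4 CPM in control eyes to 1698.2 to 2035.0 CPM in Nrf2 eyes and Srxn1 from 32.1 to 49.6 to 1047.7 to 1379.9 CPM, while the other 8 genes overlapped between groups.

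Neither thioredoxin gene, whose proteins the reductases act on, passed the test. Txn1 (ENSMUSG00000028367, chromosome 4, 57943373 to 57956411, minus strand), which encodes the cytosolic thioredoxin, was at 102.3, 119.5, 122.6, 68.2 and 207.9 CPM in control eyes and at 160.6, 141.1, 112.5, 124.0 and 170.4 CPM in Nrf2 eyes. The control eyes spread more widely than the Nrf2 eyes and enclosed them all. The Nrf2 eye was the higher one in 3 of 5 mice, and the fitted log2 fold change of 0.25 (SE 0.23, adjusted p = 0.571) did not pass the test. The control eye of mouse 5 was the highest of the 10 libraries and that of mouse 4 the lowest.

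Txn2 (ENSMUSG00000005354, chromosome 15, 77915047 to 77929006, minus strand) encodes the mitochondrial thioredoxin. Control eyes had 166.3, 168.0, 173.3, 213.0 and 134.9 CPM and Nrf2 eyes 132.5, 129.2, 148.8, 145.8 and 146.6 CPM. The Nrf2 eye was the lower one in each mouse but mouse 5, whose control eye was the lowest of its group and lay inside the Nrf2 range. The log2 fold change was -0.29 (SE 0.11, adjusted p = 0.214), and 4 of the 6 RPE markers were lower in the same eyes; their part in this value was not tested.

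Txnrd2 (ENSMUSG00000075704, chromosome 16, 18426384 to 18479073, plus strand), the gene of the mitochondrial thioredoxin reductase, had the lowest CPM of the members. It was at 11.9, 9.49, 7.89, 8.54 and 8.17 CPM in control eyes and at 11.9, 10, 11.4, 12.8 and 12.3 CPM in Nrf2 eyes, from 113 to 303 counts a library. In mice 3 to 5 the Nrf2 eye stood clearly above its partner, whereas in mice 1 and 2 the eyes were nearly level. All 5 mice had a positive ratio, but the log2 fold change of 0.34 (SE 0.11, adjusted p = 0.302) did not pass.

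Txnrd3 (ENSMUSG00000000811, chromosome 6, 89643988 to 89675529, plus strand) encodes the reductase that joins a glutaredoxin domain to a thioredoxin reductase and is best known from testis. It ranged from 13.5 to 26.4 CPM in control eyes and from 15.4 to 18 CPM in Nrf2 eyes. The Nrf2 eye was higher in 2 of 5 mice, with a fitted log2 fold change of -0.11 (SE 0.13, adjusted p = 0.784). Without mouse 1, whose control eye was the highest, the value was 0.02, so no direction can be given.

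Glrx (ENSMUSG00000021591, chromosome 13, 75839868 to 75850154, plus strand) encodes the cytosolic glutaredoxin, which removes glutathione from protein thiols. Its levels were 34.8, 26.8, 19.6, 17.6 and 30.4 CPM in control eyes and 46.6, 40.3, 25.3, 35.1 and 37.8 CPM in Nrf2 eyes. The Nrf2 eye was higher in every mouse, yet the groups overlapped, with the Nrf2 eye of mouse 3 below the control eyes of mice 1, 2 and 5. The log2 fold change of 0.52 (SE 0.12) had an adjusted p of 0.0551 and missed the threshold. It passed with DESeq2 (0.53, adjusted p = 0.0132) and among genes with a mean of at least 50 counts (0.53, adjusted p = 0.0482), and in neither case did another member join. The log2 ratios of Glrx were 0.50, 0.57, 0.39, 0.93 and 0.22 in mice 1 to 5. Those of the summed 11 called microglia and macrophage markers were 3.69, 3.02, 4.06, 4.49 and 5.96. The part of those cells was not tested.

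Glrx2 (ENSMUSG00000018196, chromosome 1, 143716338 to 143749676, plus strand), the gene of the mitochondrial glutaredoxin, was among the steadiest members, at 42.7 to 52.5 CPM in control eyes and 46.1 to 56.7 CPM in Nrf2 eyes. Its Nrf2 eye was higher in 4 of 5 mice, by a fitted 0.07 log2 units (SE 0.08, adjusted p = 0.799). A stretch of 382 bases in its transcripts is 90.3% identical to a stretch of Abcc1 (log2 fold change 1.32, adjusted p = 0.00361), so some reads could have been shared between these genes.

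Txnip (ENSMUSG00000038393, chromosome 3, 96557957 to 96561883, plus strand) encodes an arrestin-like protein that binds reduced thioredoxin and restrains it. It was at 126.5, 164.4, 177.4, 138.6 and 264.1 CPM in control eyes and at 154.2, 146.8, 195.6, 177.3 and 149.5 CPM in Nrf2 eyes. As for Txn1, the control eye of mouse 5 was the highest library. The log2 fold change was -0.05 (SE 0.23, adjusted p = 0.935), and it turned to 0.16 without mouse 5 and to 0.02 without mouse 2. Its exons share 606 bases with the antisense gene Gm15441, which had 81 counts over the 10 libraries to 34065 for Txnip. Txnl1 (ENSMUSG00000024583, chromosome 18), which encodes a thioredoxin-like protein of the proteasome, varied least of the members between control eyes, at 70.1 to 80.3 CPM in control and 75.3 to 90.7 CPM in Nrf2 eyes (log2 fold change 0.13, SE 0.06, adjusted p = 0.518). Its exons share 117 bases with Wdr7 on the opposite strand (log2 fold change -0.07, adjusted p = 0.882).

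**Figure D2:**
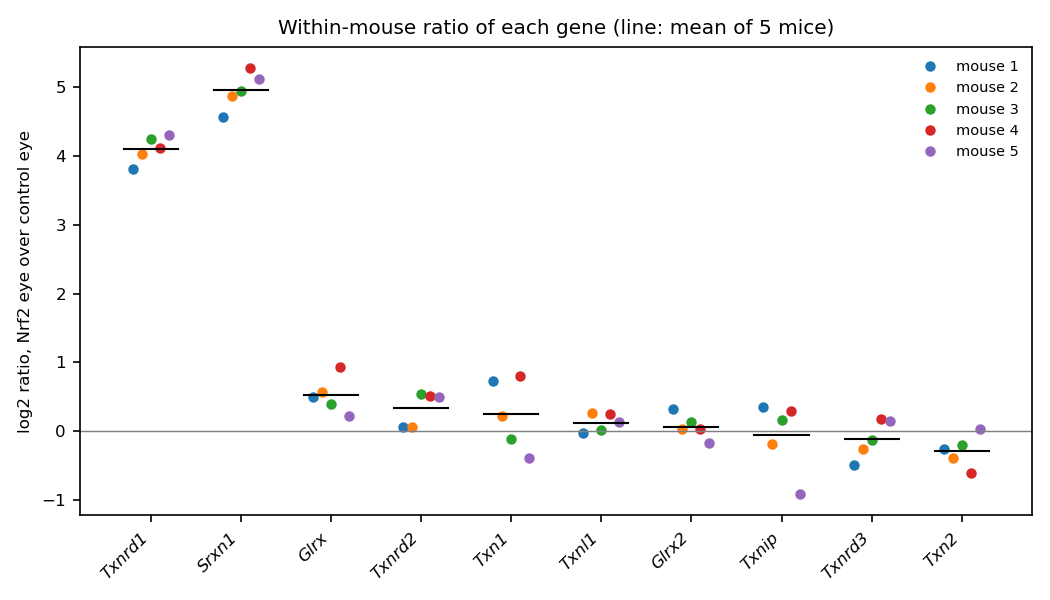
Log2 ratio of the Nrf2 eye to the control eye of the same mouse for each member, from log2 CPM with a prior count of 2, with 1 point per mouse and a line at the mean of 5 mice. Points of Txnrd1 lie between 3.81 and 4.30 and those of Srxn1 between 4.56 and 5.27, while those of the other 8 genes lie between -0.91 (Txnip, mouse 5) and 0.93 (Glrx, mouse 4).

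Cytosolic and mitochondrial partners of the same kind were then compared by the difference of their within-mouse log2 ratios in 3 pairs, with a two-sided exact permutation test that flips signs over the 5 mice. The smallest p that 5 mice allow is 0.0625, so no pair could pass 0.05. For the reductases, Txnrd1 minus Txnrd2 was 3.74, 3.96, 3.70, 3.59 and 3.80 in mice 1 to 5, a mean of 3.76 (SE 0.06), positive in 5 of 5 mice (exact permutation p = 0.0625, adjusted over the 3 pairs 0.09375). The reductase pair was therefore far apart in every mouse and the size of the gap hardly varied. For the glutaredoxins, Glrx minus Glrx2 was smaller and less even, 0.17, 0.54, 0.26, 0.89 and 0.39, a mean of 0.45 (SE 0.13), also positive in 5 of 5 mice (exact permutation p = 0.0625, adjusted 0.09375). For the thioredoxins, Txn1 minus Txn2 was 0.98, 0.62, 0.10, 1.41 and -0.41, a mean of 0.54 (SE 0.32), positive in 4 of 5 mice (exact permutation p = 0.1875, adjusted 0.1875). When the pairing by mouse was set aside and the 10 library values were permuted between groups, the reductase pair gave the same 3.76. The exact permutation p was then 0.00794, the smallest that 5 against 5 libraries allow. That permutation treats the eyes of a mouse as unrelated, so its p does not stand in for the paired one.

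Levels of different genes were compared per kilobase of exon (CPM per kb), taking the union of a gene's annotated exons as its length. In control eyes, Txn1 stood first with 118.1 ± 49.1 CPM per kb (SD, n = 5), followed by Txnip (55.8 ± 17.3) and Txn2 (40.7 ± 6.63), and each of these overlapped its neighbour in range. Txnrd1 (15.3 ± 2.27), Srxn1 (13.9 ± 2.89) and Txnl1 (11.9 ± 0.657) formed a lower tier with overlapping ranges. Below these came Txnrd3 (6.43 ± 1.75), Glrx2 (5.34 ± 0.439) and Glrx (4.70 ± 1.32), again overlapping, and Txnrd2 was last at 2.09 ± 0.373 CPM per kb. In Nrf2 eyes Srxn1 was first with 432.3 ± 52.8 CPM per kb and Txnrd1 was second with 262.5 ± 21.3, ahead of Txn1 with 134.8 ± 23.1 (SD, n = 5 each), with no overlap between these neighbours. Txnip, Txn2 and Txnl1 followed in that order, each apart from the next, then Glrx, Txnrd3 and Glrx2 with overlapping ranges, and Txnrd2 was last at 2.66 ± 0.243 CPM per kb.

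The order depends on the length taken for a gene. With the longest protein-coding transcript as the length, Txnrd1 came first in Nrf2 eyes with 513.6 ± 41.6 CPM per kb and Srxn1 second with 433.5 ± 52.9, and their ranges overlapped. In the same eyes Txn2 (68.6) then stood above Txnip (58.3), and Glrx (27.5) above Txnl1 (19.5), again with overlapping ranges. In control eyes that length put Txn2 (83.5 CPM per kb) above Txnip (61.6), and Srxn1 (14) below Glrx (19.2) and Txnl1 (17.7), in each case with overlapping ranges. Glrx2 and Txnrd3 also changed places, and here the ranges were apart. Glrx2 was at 13.3 CPM per kb (12.1 to 14.9) in control eyes and 14.2 (13.1 to 16.1) in Nrf2 eyes. Txnrd3 was below it, at 6.43 (4.76 to 9.30) and 5.89 (5.42 to 6.34). In control eyes Glrx likewise moved from below Txnrd3 to above it, at 19.2 CPM per kb (13.1 to 25.9), again with ranges apart.

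**Figure D3:**
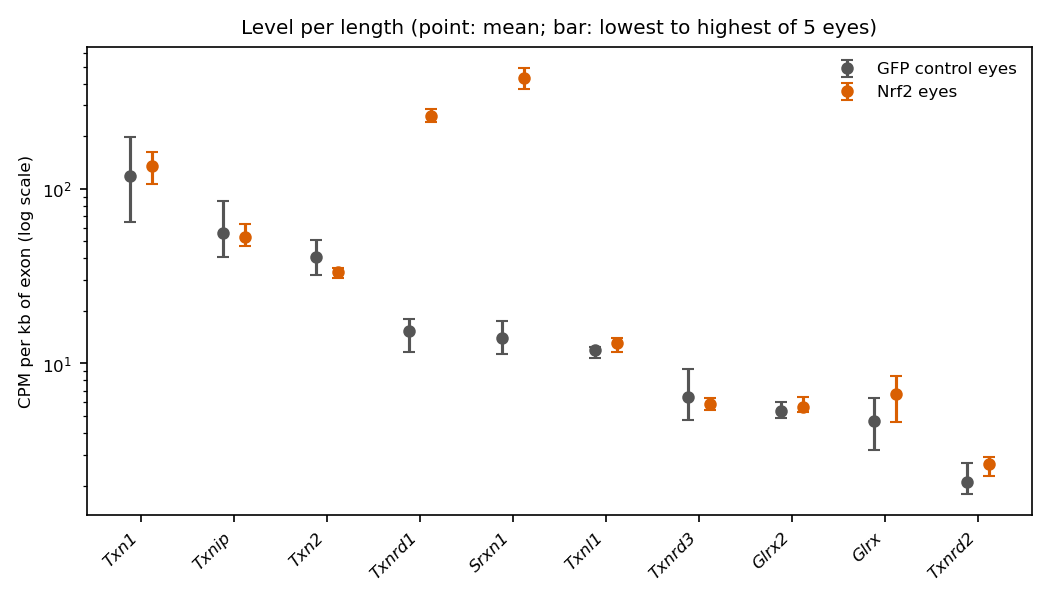
Level per length of each member, in CPM per kb of exon on a log axis, in GFP control eyes (grey) and Nrf2 eyes (orange), with a point at the mean of 5 eyes and a bar from the lowest to the highest eye. Txn1 leads in control eyes at 118.1 CPM per kb, and Srxn1 (432.3) and Txnrd1 (262.5) lead in Nrf2 eyes.

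The balance among the 3 reductases and between reductase and thioredoxin followed from these levels and is given as a description, with no test. Txnrd1 made up 59.9% to 69.9% of the summed reductase level per length in control eyes and 96.4% to 97.2% in Nrf2 eyes, with means of 64.4% ± 3.79 and 96.8% ± 0.397 (SD, n = 5 each). The ratio of Txnrd1 to Txn1 was 0.151 ± 0.067 in control eyes and 2.02 ± 0.511 in Nrf2 eyes, and the lowest Nrf2 eye, 1.51, was above the highest control eye, 0.239. In every control eye the thioredoxin RNA thus exceeded that of its reductase per length, and in every Nrf2 eye the reductase RNA exceeded that of thioredoxin. The mitochondrial ratio, Txnrd2 to Txn2, was 0.0525 ± 0.012 in control and 0.0797 ± 0.00576 in Nrf2 eyes, and here too the ranges, 0.0383 to 0.0686 and 0.0732 to 0.0861, did not overlap, although neither gene passed the test alone. With the longest coding transcript as length, the Txnrd1 share was 75.7% and 98.1%, and the ratios were 0.295 and 3.94 for Txnrd1 to Txn1 and 0.0391 and 0.0594 for Txnrd2 to Txn2. The ratio of Txnip to Txn1 was 0.496 ± 0.109 in control and 0.407 ± 0.122 in Nrf2 eyes, with overlapping ranges.

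Summed over the 10 members, the level was 274.1 ± 57.5 CPM per kb in control eyes and 949.9 ± 51.8 with Nrf2 (SD, n = 5 for either group). The 8 members other than Txnrd1 and Srxn1 summed to 244.9 ± 60.4 and 255.1 ± 18.9 CPM per kb. Srxn1 alone took 5.28% ± 1.53 of the sum of the 10 in control eyes and 45.4% ± 3.13 in Nrf2 eyes, and Txnrd1 took 5.84% ± 1.67 and 27.7% ± 2.59. With the longest coding transcript as length the order in Nrf2 eyes turned, with 33.8% ± 2.78 for Srxn1 and 40.1% ± 2.99 for Txnrd1, after 3.88% ± 1.00 and 8.36% ± 2.03 in control eyes.

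Other genes of the pathway were counted in 3 lists. Of 22 other thioredoxin-fold genes, 18 were tested, 1 rose and 1 fell, with a median log2 fold change of -0.05. Txndc16, the gene of a thioredoxin-fold protein of the endoplasmic reticulum, went from 54.8 ± 8.81 CPM in control eyes to 131.7 ± 19.6 CPM (SD, n = 5), a rise of 1.25 log2 units (SE 0.15) with an adjusted p of 0.00273. Nxnl1, which encodes rod-derived cone viability factor, fell, with a log2 fold change of -2.54 (SE 0.37) and an adjusted p of 0.00423. Its levels were 18.5 to 97.3 CPM in control eyes and 3.34 to 34.0 CPM in Nrf2 eyes, so the groups overlapped although the Nrf2 eye was lower in 5 of 5 mice. The gene is known from photoreceptors, whose markers were at 32.6 to 17339.1 CPM (8 rod markers) and 15.9 to 486.5 CPM (6 cone markers) in control eyes and 55.3 to 6671.3 and 12.4 to 112.3 CPM in Nrf2 eyes, with 0 of 7 tested rod markers and 0 of 6 cone markers called. Within mice, the cone sum was lower in the Nrf2 eye in 5 of 5 and the rod sum in 4 of 5, and all of these tested markers had negative log2 fold changes, with medians of -1.13 for cones and -1.09 for rods. With the mean level of the rod markers as a covariate, the log2 fold change of Nxnl1 was -2.24 (adjusted p = 0.0198), and without the mouse as a block it was -2.17 (adjusted p = 0.121). The part of cones was not tested.

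Of 15 genes of peroxiredoxins and other thioredoxin clients, all tested, 2 rose (Prdx1 and Prdx6) and 0 fell, with a median of 0.04. Prdx1, a peroxiredoxin that thioredoxin reduces and sulfiredoxin repairs, rose from 651.8 ± 60.2 to 2730.9 ± 594 CPM, a difference of 2.03 log2 units (SE 0.18) with an adjusted p of 0.00144. Prdx6, a peroxiredoxin that works mainly with glutathione in place of thioredoxin, rose from 891.2 ± 213.8 to 3135.6 ± 526.3 CPM (1.81, SE 0.15, adjusted p = 0.00157). The levels of both stood apart between the groups. Over the 3 lists, 41 of 47 genes had a RefSeq window searched, and 12 of these held the core, 1 of them called (Prdx1, the only one with TGACTCAGC), 8 tested and not called, and 3 with too few counts to be tested. Txndc16 and Nxnl1 held no match, and no window was searched for Prdx6. The other 4 peroxiredoxins had log2 fold changes of 0.01 (Prdx2), 0.02 (Prdx5), 0.20 (Prdx3, the mitochondrial client of Txn2) and 0.50 (Prdx4), with adjusted p from 0.212 to 0.974. Methionine sulfoxide reductases, ribonucleotide reductase subunits, Map3k5 and Apex1 lay between -0.36 and 0.30, and none passed the test.

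Of 10 relatives and regulators of Txnip, 9 were tested and 0 passed in either direction, with a median of 0.17. Arrdc4, the closest relative of Txnip among the arrestin-like genes and like it a target of the glucose-sensing factors Mlxip and Mlxipl, had a log2 fold change of 0.33 (adjusted p = 0.292). Slc2a1, the gene of a glucose transporter that Txnip holds back, had -0.38 (adjusted p = 0.202).

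**Figure D4:**
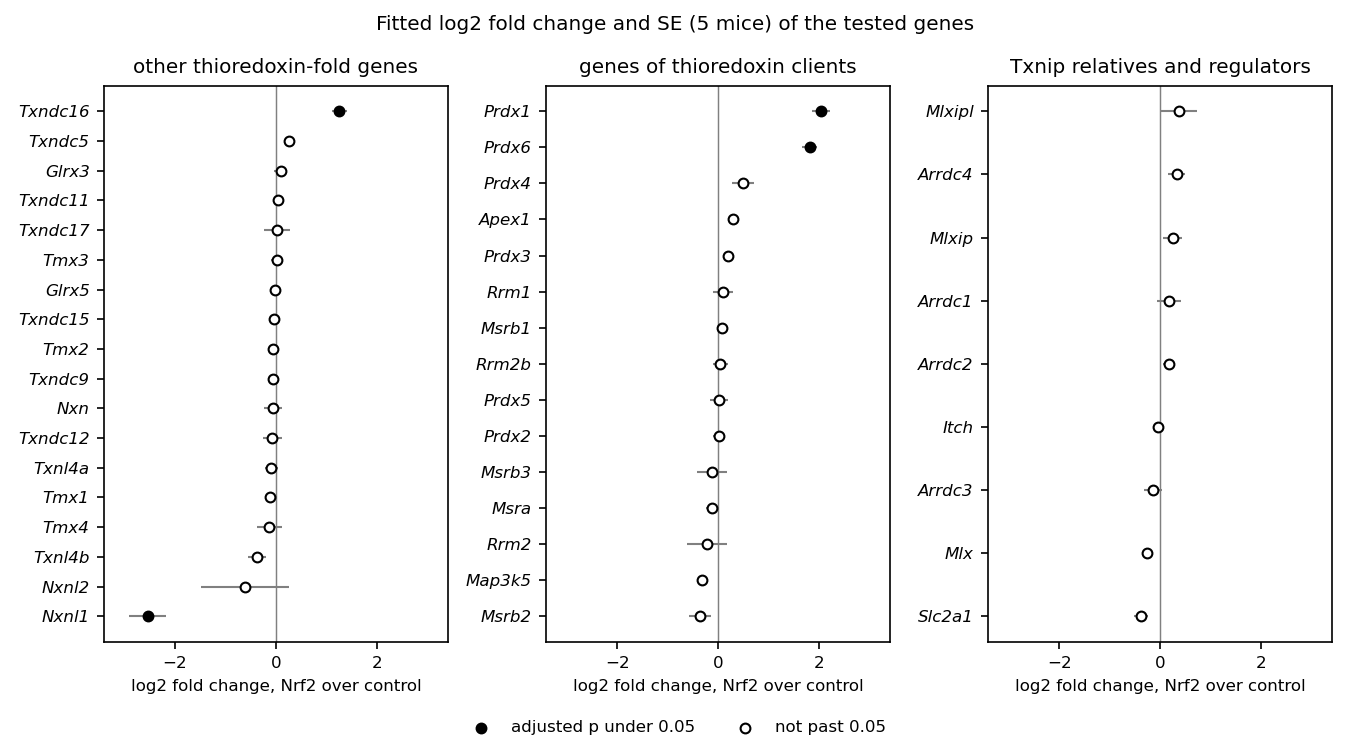
Fitted log2 fold change, Nrf2 over control, of every tested gene in the 3 lists, with bars of 1 SE over 5 mice and filled points for an adjusted p under 0.05. Txndc16 (1.25), Prdx1 (2.03) and Prdx6 (1.81) are filled to the right and Nxnl1 (-2.54) to the left, and the Txnip list has no filled point.

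The genes whose 5 within-mouse log2 ratios lay nearest to those of the called members were found by root mean square distance over the 5 mice. For Txnrd1 these were Gstm2-ps1 (0.421), Cfi (0.428) and Gclc (0.512), and for Srxn1 Gm12092 (0.424), Acp7 (0.508) and Hcrtr1 (0.584), all in log2 units. Gclc, which encodes the catalytic subunit of the enzyme that starts glutathione synthesis, went from a mean of 90.1 CPM in control eyes to 1970 CPM in Nrf2 eyes (log2 fold change 4.46). The other 5 had means of 0 to 0.32 CPM in control eyes, so their ratios rest on the prior count of 2.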

How the data were processed

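The authors aligned reads with STAR to mm10 with Ensembl release 91 transcripts, then used featureCounts to count reads in genes; Salmon (0.8.2 in the submitters' processing notes) gave estimated counts for their DESeq2 analysis. What they deposited is a table of raw, whole-number gene counts with no normalization. Which of these count tables was deposited, the strand setting and the filters are not given in the sources used here, so reads where exons of opposite strands overlap cannot be assigned to either gene. Positions, symbols and exon lengths came from GENCODE M21 (GRCm38), where 98.9% of the identifiers had an entry. No column belonged to another sample.

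Eyes were paired by the animal number in the labels. After subtracting each group's mean log2 CPM, the eyes of a mouse correlated across genes with r from 0.186 to 0.707, while eyes from different mice had a median r of -0.0811 (-0.421 to 0.28). No libraries of a group agreed within sampling noise (smallest chi-square per degree of freedom 37.4).

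The test was edgeR's quasi-likelihood F test (edgeR 4.0.16, R 4.3.3) on filterByExpr genes (by group) with TMM scaling and the mouse blocked, adjusted by Benjamini-Hochberg over all genes tested, with calls at 0.05. The filter was first run with the design matrix, and the group form, which matches an earlier processing of these files, was adopted after that output was seen; both values are given with the alternatives. Log2 fold changes are fitted values. SEs come from the 5 log2 ratios within mice (log2 CPM on TMM-scaled totals, prior count 2); CPM use plain totals. Scripts were tested on simulated data. DESeq2 1.42.0 was an alternative.

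Members, gene lists, markers and the motif were chosen with earlier results of these data known. All members are named, with the called genes of each list (at most 6) and the 3 nearest genes of each called member. Near copies were sought at 90% identity over at least 300 aligned bases, a minimum set after shorter repeats were seen. The stretches to print and the alternative gene length were also chosen after the data were seen.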

Additional observations from a re-analysis of the deposited data

Results flagged for a closer look

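The levels of the 10 members in each group, their within-mouse ratios and the 3 pair differences made 33 sets of 5 values, which were checked for a value far from the others, and 2 stood out, where chance gives 1.65. Txnrd2 in the Nrf2 eye of mouse 2 was at 3.29 log2 CPM, below the 3.58 to 3.64 of the other Nrf2 eyes, and that gap was 0.833 of the group's range. Glrx2 in the Nrf2 eye of mouse 1 was at 5.88 log2 CPM, above the 5.51 to 5.61 of the other Nrf2 eyes, a gap of 0.732 of the range. Neither gene passed the test, with or without the mouse concerned.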

How the results depend on the processing

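Of 140 member results under 14 alternatives each, 135 kept their direction and their side of the threshold, and Txnrd1 and Srxn1 did so in 14 of 14, with log2 fold changes of 4.05 to 4.21 and 4.85 to 5.09. Glrx passed in 2 (DESeq2 and the mean of at least 50 counts, 0.53 in each), which made 3 members called instead of 2, and its adjusted p ran from 0.0132 to 1 over the alternatives. Txnip turned to 0.02 without mouse 2 and to 0.16 without mouse 5 (range with a mouse left out -0.12 to 0.16), and Txnrd3 to 0.02 without mouse 1 (-0.18 to 0.02).

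The 1036 genes called became 1823 of 19309 with DESeq2, 443 in a test against a fold change of 1.5 and 501 with rod markers as a covariate. With a mouse left out they numbered 584 (without mouse 2) to 857 (without mouse 1), and 613 without mouse 4 and 683 without mouse 5, from 4 pairs of eyes in place of 5. The filter by the design matrix, run before the group form was adopted as the main one, gave 1051 of 18284 and the same count of 2 members. What else moved these counts was not tested.

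Without the replicate block, so without the pairing of eyes, 755 genes were called, Nxnl1 was at -2.17 with an adjusted p of 0.121, and the difference Txnrd1 minus Txnrd2 of 3.76 had an exact permutation p of 0.00794; the block changed no call on the 10 members, Txndc16, Prdx1, Prdx6, Nfe2l2 or the other 2 pairs. With a mouse left out, the pair differences were 3.71 to 3.80 (reductases), 0.32 to 0.78 (thioredoxins) and 0.34 to 0.52 (glutaredoxins), where 4 mice cannot pass 0.05 either. Txnrd2 had the fewest counts of the members, 113 to 303 a library.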
